A study of Mus musculus with 6 samples.

Results

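The genes described here build peroxisomes or carry out the lipid chemistry inside them. They are 32 of the 54532 genes in the deposited table, chosen by gene name and not by measured values: 13 peroxins and 19 other genes for beta oxidation, alpha oxidation, fatty acid transport, ether lipid synthesis and peroxide removal. All 32 were found and all 32 had reads in every library. Of them, 27 reached 1 FPKM (fragments per kilobase of transcript, a level scaled for gene length and library size) in at least 3 libraries and were tested. The other 5 (Pex7, Pecr, Hacl1, Pex11g and Abcd2) are described by their levels alone.

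RNA was sequenced from live CD31+, CD45-, PDGFRb- cells sorted from brain. That gate is meant to take vascular endothelium and to leave out leukocytes and pericytes. Every library came from Df(h22q11)/+ mice, which carry a heterozygous deletion modelling human 22q11.2 deletion syndrome, so treated and untreated animals share the deletion, and wild-type mice are not analysed here. The untreated group (libraries F_1, F_2 and M_1) ate irradiated base chow, and the bezafibrate group (F_1, M_1 and M_2) ate chow enriched with 0.5% bezafibrate, a fibrate drug that activates PPAR nuclear receptors, in both cases for 4 weeks. The mice were 12 to 16 weeks old, and each library pooled 3 brains of mice of the same sex, F for female and M for male. The comparison addresses which transcripts of brain endothelium differ after bezafibrate in mice with the deletion. Values by pool are always given in the order F_1, F_2, M_1 for the untreated group and F_1, M_1, M_2 for bezafibrate. Pools of separate animals are the replicates, and the sexes are unequal between the groups.

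Peroxisomes shorten very-long-chain fatty acids by beta oxidation and certain branched-chain fatty acids by alpha oxidation. They also start the synthesis of ether lipids such as plasmalogens, which are abundant in brain. Their membrane proteins are inserted with the help of PEX3, PEX16 and PEX19, while enzymes of the matrix are carried in by the receptors PEX5 and PEX7 and pass a docking complex, after which PEX5 is ubiquitinated and extracted for another round. In rodent liver, activation of PPAR-alpha by fibrates is known to multiply peroxisomes and to induce Ehhadh, Pex11a and other genes of this set. PPAR binds DNA with RXR at a direct repeat of 2 copies of AGGTCA separated by 1 base.

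The promoters of the members were therefore read for that repeat, and the windows below are shown because they hold the closest matches (Cat, Phyh and Pex11g) or belong to genes known to be induced in rodent liver (Ehhadh and Pex11a). RefSeq promoters of GRCm38.p6, which run from 250 bases before a gene's start to 50 after it, were available for 26 members, with 30 promoters among them. Capitals mark the 13 bases aligned with the repeat, of which 12 were compared and the spacer was not. Each window is on the minus strand of GRCm38, 5′ to 3′.
Cat, chr2:103485336-103485366: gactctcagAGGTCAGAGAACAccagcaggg
Phyh, chr2:4919016-4919045: ctgcgcccAGGTCACACTTAActtacggca
Pex11g, chr8:3467703-3467733: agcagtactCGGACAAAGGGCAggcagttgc
Ehhadh, chr16:21787886-21787916: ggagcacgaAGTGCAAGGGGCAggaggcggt
Pex11a, chr7:79743282-79743312: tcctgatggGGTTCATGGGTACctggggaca
The Cat window matched 10 of the 12 bases and is centred at -198 bases from the RefSeq start. The Phyh and Pex11g windows matched 9, the Ehhadh window 8 and the Pex11a window 7. Both strands were searched, and the single copy AGGTCA was searched as well, which is part of the repeat. Matches of at least 10 bases were held by 1 of the 30 member promoters (3.33%) and by 3.86% of all 32851 promoters. Matches of at least 9 were held by 3 of the 30 member promoters and 24.6% of all promoters, and the single copy by 13.3% of the member promoters and 16.3% of all. The member promoters thus held the repeat and the single copy no more often than promoters at large. They were richer in GC, with a median of 58.8% against 52.7%, and in CpG, with a median observed over expected ratio of 0.808 against 0.384. These matches are letters in short windows, and distal sites were not searched.

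The libraries held 16858130 to 20228619 recovered reads, and 11060 to 11387 genes reached 1 FPKM. All 14 endothelial marker genes were among the genes tested, and no marker of the other cell types was at 0 in every library. Summed endothelial markers stood at 6886 to 9761 FPKM in untreated libraries and 6050 to 9380 in bezafibrate libraries, and summed oligodendrocyte markers (8 of 8 tested) at 475 to 1024 and 411 to 888 FPKM. Astrocyte markers (7 of 7 tested) summed to 39.4 to 58.4 FPKM and 25.2 to 47.3, and pericyte markers (8 of 8) to 195.8 to 357 and 199.5 to 278. Microglia markers (6 of 8 tested) summed to 28.4 to 35.5 FPKM and 21.3 to 31.3. Ependymal and choroid plexus markers (7 of 7) summed to 359.9 to 403 and 408 to 941, so that the groups did not overlap. The gap between untreated F_1 at 403 and bezafibrate F_1 at 408 was narrow, and the bezafibrate males stood at 556 and 941. Untreated M_1 and bezafibrate F_1 stood apart on the first principal component of all genes tested (39.3% of the variance), with scores of 30.3 and 24.4 against -22.6 to 1.62 in the other 4. In a sorted bulk sample, fewer cells of a type and less RNA per cell cannot be told apart.

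No member passed the test for bezafibrate, in either direction. With limma and Benjamini-Hochberg adjustment over all 11277 genes tested, 0 of 27 members had an adjusted p under 0.05, against 1 gene (0.00887%) of the whole table, and the smallest adjusted p of a member was 0.999. At an unadjusted p under 0.05 the members again numbered 0, against 472 genes or 4.19%. The difference (bezafibrate minus untreated, on the log2(FPKM + 1) scale used throughout) was above 0 in 19 members and below 0 in 8, with a median of 0.06 and a range from -0.26 to 0.44. Over all genes tested the median was -0.01, with 48.2% above 0 against 70.4% of the members. The lean depended on the setting. The member median was -0.0032 without untreated M_1, -0.0019 with a filter at 5 FPKM (14 members) and -0.039 with the composition ratio as a covariate. That ratio is the summed reads over the library size used for scaling. In every other alternative the median was above 0, as at 0.10 with sex as a covariate (21 members above 0) and 0.11 without untreated F_1 (21 members). The median SE of a member was 0.181, and 26 of the 27 95% intervals lay wholly between -1 and 1, which on this scale is a factor of 2 in FPKM + 1. Crot was the exception, with an upper bound of 1.06.

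**Figure D1:**
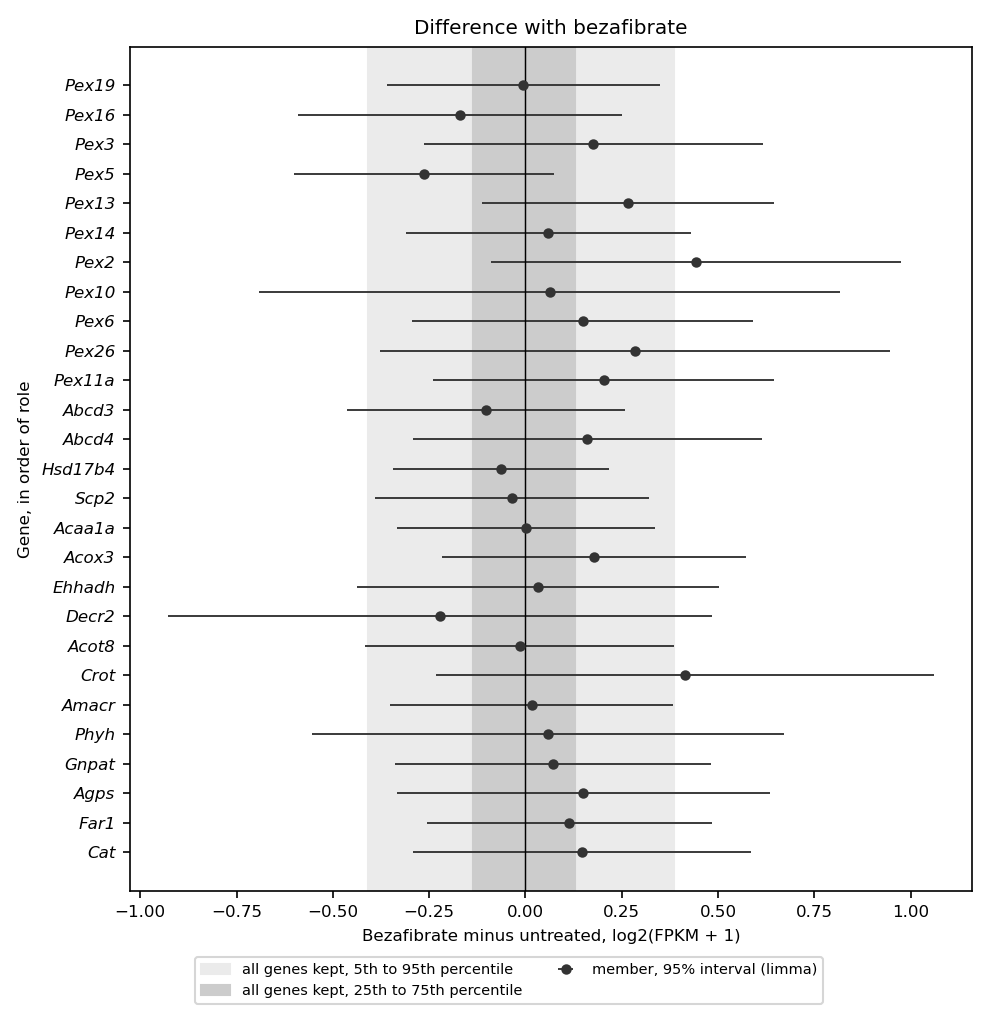
Difference of each tested member between bezafibrate and untreated libraries (log2(FPKM + 1), points) with 95% intervals from limma (lines), in order of role. Every interval includes 0, and most points lie inside the band from -0.41 to 0.39 that holds the 5th to 95th percentile of all genes tested.

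Levels spanned from the most abundant to the barely detected. Cat, the catalase that breaks down hydrogen peroxide, had the highest mean, 29.0 FPKM, above 86.1% of the 10066 protein-coding genes tested. A mean of at least 10 FPKM was reached by 7 members, 20 lay from 1 to under 10, and 5 lay under 1. The median member tested stood at 4.55 FPKM, and the median protein-coding gene tested at 6.47. Hsd17b4, the bifunctional enzyme of the beta oxidation of branched and very-long chains, was the steadiest member, with a coefficient of variation of 4.23% over the 6 libraries. Pex10, Pex26 and Crot varied most among tested members, at 44.3%, 42.5% and 39.2%. The median over tested members was 17.0%, and over all genes tested 19.8%.

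**Figure D2:**
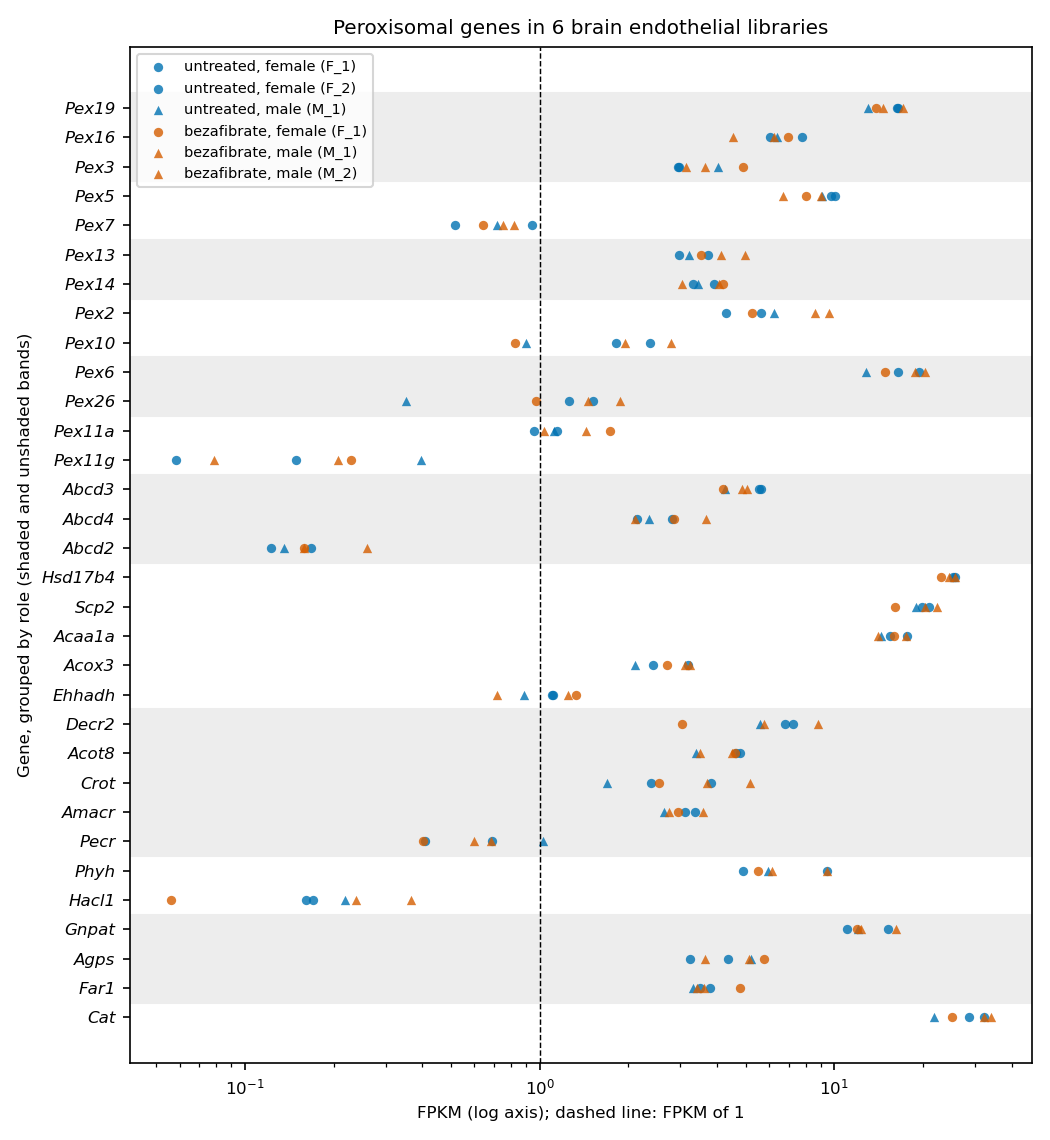
FPKM of the 32 members in each library (log axis; blue untreated, orange bezafibrate, circles female pools, triangles male pools), grouped by role. Cat and Hsd17b4 lie highest, the colours are mixed in nearly every row, and 5 members lie mainly left of the dashed line at 1 FPKM.

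Among the factors that put proteins into the peroxisomal membrane, Pex19, the soluble receptor of membrane proteins, was the most abundant. It stood at 16.4, 16.4 and 13.02 FPKM in the untreated pools and at 13.8, 14.6 and 17.1 in the bezafibrate pools. The lowest value and the next to highest were both untreated, the groups overlapped, and the difference was -0.01 (SE 0.152). Pex16, a membrane peroxin that recruits PEX3, averaged 6.73 ± 0.907 FPKM untreated and 5.92 ± 1.26 with bezafibrate (SD, n = 3 each here and below). Pex3, the docking site of PEX19, averaged 3.31 ± 0.614 and 3.90 ± 0.914. None of these passed the test.

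Pex5 was the 1 member whose groups did not overlap, a state held by 950 genes or 8.42% of all tested. PEX5 is the receptor for the C-terminal targeting signal that most matrix enzymes carry, and the gene lies on chromosome 6 from 124396816 to 124415067 (GRCm38, minus strand). It stood at 9.74, 10.04 and 9.11 FPKM in the untreated pools and at 7.99, 9.004 and 6.71 in the bezafibrate pools. All bezafibrate pools lay below all untreated pools, but the gap between 9.11 and 9.004 was narrow. The means were 9.63 ± 0.472 and 7.90 ± 1.15, and the difference of -0.26 (SE 0.145, 95% interval -0.60 to 0.07) did not pass, with an unadjusted p of 0.109 in limma. Pex7, the receptor for the N-terminal signal that the thiolase, PHYH and AGPS carry, stayed between 0.515 and 0.942 FPKM (111 to 229 reads per library), under the limit for testing.

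Of the docking complex, Pex13 had the larger difference. It stood at 2.98, 3.73 and 3.21 FPKM in the untreated pools and at 3.53, 4.11 and 4.96 in the bezafibrate pools. The highest values were the bezafibrate male pools, while bezafibrate F_1 fell within the untreated range. The difference was 0.27 (SE 0.162, 95% interval -0.11 to 0.64). Pex14, which receives loaded PEX5 at the membrane, averaged 3.56 ± 0.312 and 3.77 ± 0.631 FPKM. Its value is uncertain, since 28.3% of its exon bases are shared with any other gene, the largest part with the antisense gene Gm17029. Whether counting used strand is not stated in the labels or notes.

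PEX2 and PEX10 are RING ubiquitin ligases that mark PEX5 for export. Pex2 (chromosome 3, 5560188 to 5576239, minus strand) stood at 5.63, 4.28 and 6.22 FPKM in the untreated pools and at 5.26, 9.57 and 8.58 in the bezafibrate pools. The 2 bezafibrate male pools were the highest, and bezafibrate F_1 lay below 2 of the untreated pools. The difference was 0.44 (SE 0.229, 95% interval -0.09 to 0.98), with an unadjusted p of 0.0909 and an adjusted p of 0.999 in limma. With sex as a covariate it was 0.28 (SE 0.183). Pex10 stood at 1.81, 2.37 and 0.898 FPKM in the untreated pools and at 0.825, 1.95 and 2.79 in the bezafibrate pools, from 49 to 173 reads. Its low libraries were 1 of each group, and the difference was 0.06 (SE 0.324).

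PEX6 is an AAA ATPase that pulls PEX5 back out of the membrane, and PEX26 anchors it there. Pex6 was the most abundant peroxin, at 19.3, 16.5 and 12.8 FPKM in the untreated pools and at 14.8, 20.2 and 18.8 in the bezafibrate pools. Pex26 stood at 1.25, 1.52 and 0.352 FPKM untreated and at 0.971, 1.87 and 1.46 with bezafibrate, from 37 to 225 reads. Both genes were lowest in untreated M_1 and next lowest in bezafibrate F_1, and their group means, 16.2 ± 3.29 against 17.96 ± 2.79 and 1.04 ± 0.611 against 1.43 ± 0.449, lay within the spread. The differences were 0.15 (SE 0.190) and 0.29 (SE 0.284).

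Pex11a, a membrane factor of peroxisome proliferation that PPAR-alpha agonists induce in rodent liver, was low. It stood at 0.953, 1.15 and 1.12 FPKM in the untreated pools and at 1.73, 1.03 and 1.44 in the bezafibrate pools, from 61 to 99 reads. The highest values were 2 bezafibrate pools, and bezafibrate M_1 lay among the untreated ones. The difference was 0.20 (SE 0.191, 95% interval -0.24 to 0.65). Its relative Pex11g stayed between 0.0586 and 0.396 FPKM (4 to 25 reads). Of its exon bases, 41.1% are shared with any other gene, the largest part with the antisense gene Gm44775.

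The ABCD transporters are ABC proteins of the peroxisomal or lysosomal membrane. Abcd3, which carries branched-chain and dicarboxylic acids into peroxisomes, averaged 5.14 ± 0.782 FPKM untreated and 4.70 ± 0.453 with bezafibrate. Abcd4, a lysosomal relative that handles cobalamin, averaged 2.43 ± 0.345 and 2.88 ± 0.780. Abcd2, a peroxisomal carrier of very-long-chain acyl-CoA that fibrates induce in rodent liver, stood at 0.167, 0.123 and 0.136 FPKM in the untreated pools and at 0.159, 0.158 and 0.260 in the bezafibrate pools. These Abcd2 values rest on 13 to 29 reads, overlap between the groups, and were not tested.

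Differences of the core beta oxidation enzymes ran from -0.06 to 0.18. Hsd17b4 stood at 25.7, 25.2 and 25.5 FPKM in the untreated pools and at 22.9, 24.5 and 25.6 in the bezafibrate pools. The largest gap from the untreated pools was that of bezafibrate F_1, and the difference of -0.06 (SE 0.120, 95% interval -0.34 to 0.22) had the smallest error of any member. Scp2, the source of a sterol carrier and of the thiolase for branched chains, stood at 20.9, 19.9 and 18.9 FPKM untreated and at 16.1, 20.2 and 22.3 with bezafibrate. Acaa1a, the thiolase for straight chains, stood at 17.6, 15.4 and 14.4 FPKM untreated and at 15.9, 14.1 and 17.5 with bezafibrate. Both overlapped between the groups, with differences of -0.03 (SE 0.153) and 0.00 (SE 0.144). Both are uncertain as single-gene values. Of the 75-base stretches, 25.6% of those of Scp2 and 12.6% of those of Acaa1a occur elsewhere in the transcriptome. The gene sharing the most was the pseudogene Scp2-ps2 for Scp2 and Acaa1b for Acaa1a. Acaa1b itself had 0 to 4 reads.

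Ehhadh, the bifunctional enzyme of straight-chain beta oxidation and a textbook PPAR-alpha target in rodent liver, was near the limit of testing. It stood at 1.10, 1.11 and 0.885 FPKM in the untreated pools and at 1.32, 1.25 and 0.714 in the bezafibrate pools, from 40 to 79 reads. Bezafibrate pools were both the highest and the lowest, and the difference was 0.03 (SE 0.202, 95% interval -0.44 to 0.50). Acox3, an oxidase of branched-chain acyl-CoA, averaged 2.57 ± 0.552 and 3.02 ± 0.273 FPKM.

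Of the enzymes that prepare acyl groups for beta oxidation or export its products, Crot and Decr2 varied widely between pools. Crot (chromosome 5, 8966033 to 8997324, minus strand), which joins medium-chain acyl groups to carnitine for export to mitochondria, stood at 3.80, 2.39 and 1.69 FPKM in the untreated pools and at 2.55, 5.19 and 3.71 in the bezafibrate pools. The bezafibrate males were high, yet untreated F_1 exceeded bezafibrate M_2. The difference was 0.41 (SE 0.278, 95% interval -0.23 to 1.06). Decr2, the dienoyl-CoA reductase for unsaturated chains, stood at 6.83, 7.21 and 5.58 FPKM untreated and at 3.04, 5.75 and 8.79 with bezafibrate. The extremes were both bezafibrate pools, the female lowest and M_2 highest, and the difference was -0.22 (SE 0.303).

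Acot8, a thioesterase that frees acyl groups from CoA, stood at 4.63, 4.78 and 3.40 FPKM in the untreated pools and at 4.62, 4.50 and 3.49 in the bezafibrate pools. The groups overlapped almost fully, and the difference was -0.02 (SE 0.173). Of its exon bases, 12.3% are shared with any other gene, the largest part with Snx21 on the opposite strand. Amacr, the racemase that readies branched chains for oxidation, averaged 3.05 ± 0.372 and 3.10 ± 0.438 FPKM. Pecr, a trans-enoyl-CoA reductase, stayed between 0.403 and 1.03 FPKM (11 to 29 reads), its highest value in untreated M_1. Of the alpha oxidation pair, Phyh, the hydroxylase of phytanoyl-CoA, averaged 6.77 ± 2.39 and 7.03 ± 2.12 FPKM with 1 high library in each group, untreated F_1 at 9.46 and bezafibrate M_2 at 9.44. Hacl1, the lyase of the next step, lay between 0.0562 and 0.366 FPKM (5 to 34 reads). Of its exon bases, 33.3% are shared with any other gene, the largest part with Gm49387.

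The enzymes that begin ether lipid synthesis were all detected. Gnpat, the acyltransferase of the first step, stood at 15.2, 11.05 and 12.1 FPKM in the untreated pools and at 12.0, 16.2 and 12.3 in the bezafibrate pools. Each group held 1 high pool, and the difference was 0.07 (SE 0.176). Agps, which makes the ether bond, averaged 4.27 ± 1.00 and 4.84 ± 1.08 FPKM, and Far1, the reductase that supplies the fatty alcohol, 3.53 ± 0.238 and 3.93 ± 0.738. Differences were 0.15 (SE 0.208) and 0.11 (SE 0.159).

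Catalase closes the series of reactions by removing the peroxide that the oxidases make. Cat (chromosome 2, 103453849 to 103485160, minus strand) stood at 32.1, 28.5 and 21.8 FPKM in the untreated pools and at 25.1, 32.2 and 34.0 in the bezafibrate pools, from 1060 to 1790 reads. The low pools were again untreated M_1 and bezafibrate F_1. The means were 27.5 ± 5.19 and 30.4 ± 4.73, and the difference was 0.15 (SE 0.188, 95% interval -0.29 to 0.59). In order of mean level, Cat, Hsd17b4, Scp2, Pex6, Acaa1a, Pex19 and Gnpat were the members above 10 FPKM, and neighbours in that order overlapped across the 6 libraries except Hsd17b4 and Scp2, whose values lay at 22.9 to 25.7 and 16.1 to 22.3 FPKM.

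Untreated M_1 was low in many members at once, and bezafibrate F_1 in fewer. The mean log2(FPKM + 1) over the 27 tested members was 2.79, 2.70 and 2.56 in the untreated pools and 2.67, 2.80 and 2.82 in the bezafibrate pools. Over all genes tested the library means stayed between 3.04 and 3.07. In untreated M_1, 22 of the 27 members lay below their own mean over libraries, and in bezafibrate F_1 17 did, against 6 and 14 in the untreated females and 12 and 8 in the bezafibrate males. Untreated M_1 held the lowest value of 9 members (33.3%, against 20.8% of all genes tested) and the highest of 0. Bezafibrate F_1 held the lowest value of 5 (18.5%, against 16.7%) and the highest of 6 (22.2%, against 16.4%), so it was mixed. Both libraries had the highest summed endothelial markers (9761 and 9380 FPKM, against 6050 to 8831 in the others) and oligodendrocyte markers (1024 and 888, against 411 to 588). Their composition ratios, 1.09 and 1.06, were the highest too, against 0.888 to 1.03. The part of these measures in the low member values was not tested.

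**Figure D3:**
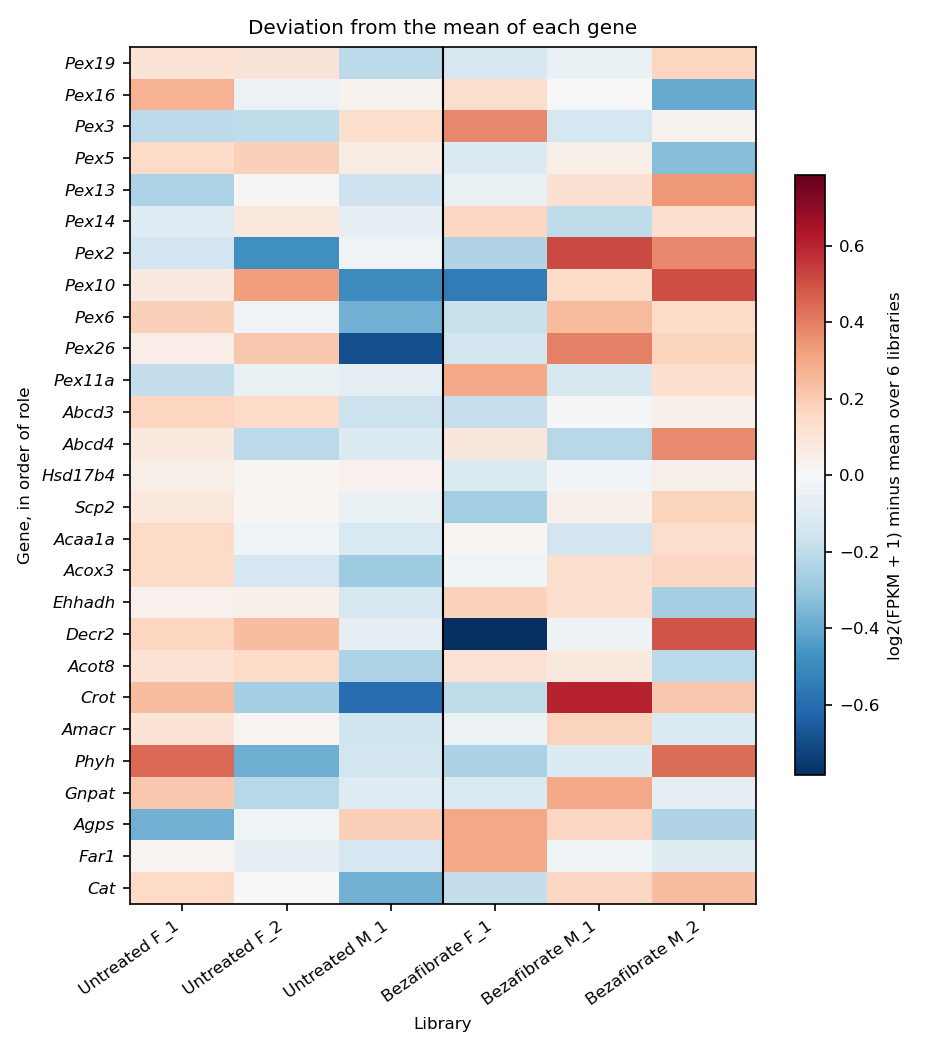
Deviation of each tested member in each library from its mean over the 6 libraries (log2(FPKM + 1), red above, blue below), with the untreated libraries left of the line. Untreated M_1 is blue in 22 of 27 rows and bezafibrate F_1 in 17, and the blue cells of these 2 columns spread over most roles.

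Untreated M_1 and bezafibrate F_1 are of different sex and group. The difference with bezafibrate ran in opposite directions in the sexes about as often among members as among all genes tested. What differed was the split of the directions. Bezafibrate was below untreated in the female pools and above it in the male pools for 15 of 27 members (55.6%, against 30.8% of all genes tested), and the reverse held for 3 (11.1%, against 33.5%). The median difference of the members was -0.11 in females and 0.18 in males, against 0.01 and -0.01 over all genes. This split was not particular to the members. Among the 48 further peroxisomal genes, the first pattern held for 23 (47.9%) and the reverse for 11 (22.9%). Their median difference was -0.06 in females and 0.15 in males. The test of the treatment by sex interaction called 0 of 27 members at an adjusted p under 0.05, against 75 genes or 0.665% overall. At an unadjusted p under 0.05 it gave 7 of 27, or 25.9%, against 2398 genes or 21.3%, which is close to the background. Untreated males and bezafibrate females are 1 library each, so the interaction and those 2 libraries cannot be told apart.

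The 7 members were Cat, Pex6, Decr2, Pex10, Pex26 and Crot, whose signed difference was more positive in males, and Pex3, whose signed difference was more positive in females. Pex10 had the smallest adjusted p, 0.103, with a difference of -0.75 in females and 0.82 in males. Crot differed by -0.19 and 1.01, and Cat by -0.26 and 0.58, with adjusted interaction p of 0.188 and 0.141 in limma. Pex3 differed by 0.58 and -0.20, at an adjusted p of 0.211. Decr2 had the lowest female value, -0.99, against 0.31 in males.

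**Figure D4:**
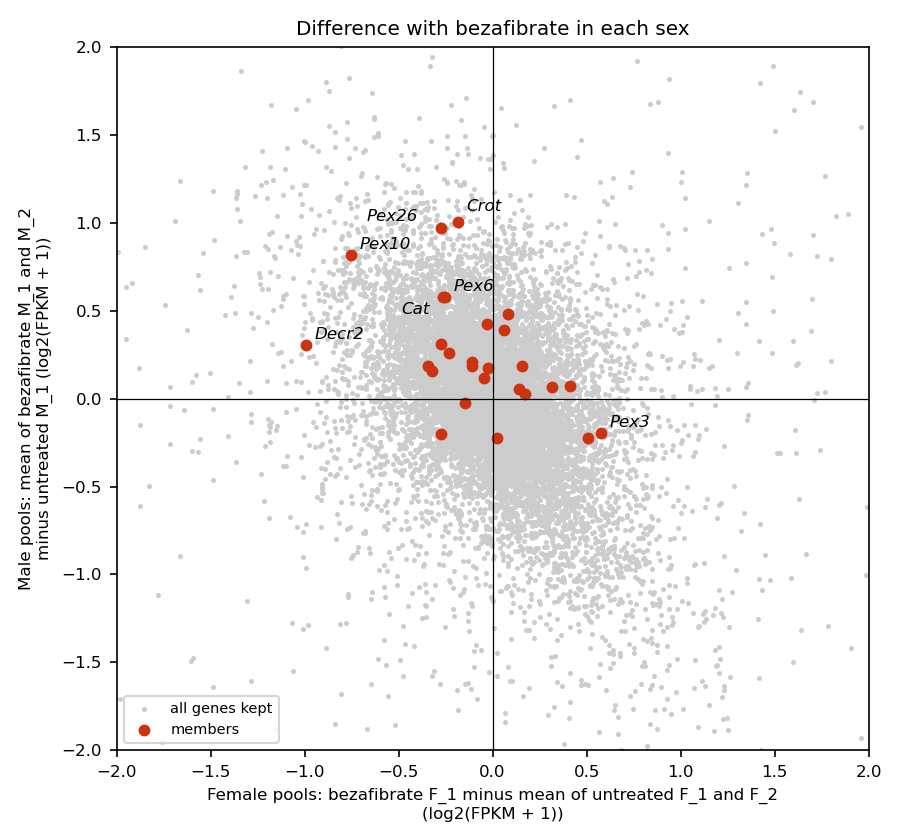
Difference with bezafibrate in female pools (horizontal) and male pools (vertical) on the log2(FPKM + 1) scale, for the tested members (red) and all genes tested (grey; 94 genes lie outside the axes). Of the members, 15 lie in the upper left part and 3 in the lower right, and the 7 named genes had an unadjusted interaction p under 0.05.

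Between the sexes, with treatment as a covariate, limma called 0 of 27 members, against 3 genes or 0.0266%. At an unadjusted p under 0.05 there was 1 member, Pex2, against 331 genes or 2.94%. Pex2 was higher in male pools, 6.22 to 9.57 FPKM, than in female pools, 4.28 to 5.63, without overlap, by 0.49 (SE 0.183, unadjusted p = 0.0351, adjusted p = 1.00). Decr2 differed by 0.36 (SE 0.319) and Acot8 by -0.28 (SE 0.167), the latter also without overlap, at 3.40 to 4.50 FPKM in males and 4.62 to 4.78 in females. The sexes did not overlap in 2 of 27 members, or 7.41%, against 895 genes or 7.94% of all tested, which is near the background. The members had a median difference of -0.04 between the sexes, male minus female.

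The rest of the peroxisomal inventory was read for comparison from a list of 73 further genes, of which 48 were tested. Of these, 27 lay above 0 and 21 below, with a median difference of 0.02, and 0 were called for bezafibrate, with 2 (4.17%) at an unadjusted p under 0.05, the same share as the 4.19% of all genes. Groups did not overlap in 2 of the 48 (4.17%), fewer than the 8.42% of all genes, so the genes named next are values at background frequency. Tysnd1, the protease that trims imported beta oxidation enzymes, stood at 6.29, 8.18 and 8.43 FPKM in the untreated pools and at 10.3, 10.3 and 13.1 in the bezafibrate pools. All bezafibrate pools lay above all untreated pools, with a difference of 0.51 (SE 0.164, unadjusted p = 0.0160, adjusted p = 0.999). Idi1, an isopentenyl diphosphate isomerase of sterol synthesis, was the other, at 3.36, 4.13 and 4.04 FPKM untreated and 3.58, 2.05 and 1.37 with bezafibrate, a difference of -0.59 (SE 0.248, unadjusted p = 0.0462, adjusted p = 0.999). Acbd5, a membrane tether to the endoplasmic reticulum, also had groups that did not overlap, at 9.29 ± 0.606 FPKM untreated and 7.94 ± 0.146 with bezafibrate. Xdh, a xanthine oxidoreductase, averaged 60.3 ± 12.5 and 68.8 ± 5.93 FPKM, and Prdx1, a peroxiredoxin, 52.5 ± 2.31 and 51.9 ± 9.68.

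The receptors through which bezafibrate acts were unequal in level. Ppard, the PPAR-delta gene, stood at 21.4, 27.7 and 30.9 FPKM in the untreated pools and at 28.5, 21.9 and 25.4 in the bezafibrate pools. Ppara stayed between 0.117 and 0.449 FPKM and Pparg between 0.0505 and 0.551 over the 6 libraries. Of the RXR partners, Rxrb lay between 10.2 and 16.9 FPKM and Rxra between 3.95 and 7.28, while Rxrg did not exceed 0.0409. Of 11 peroxisomal genes listed as PPAR-alpha targets in rodent liver, 9 were tested, with a median difference of 0.0018. Of these, 5 lay above 0 (55.6%, against 48.2% of all genes tested) and 4 below. For bezafibrate 0 were called, against 1 of all 11277 genes. Most of these genes are members already described, so this is not a separate check.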

How the data were processed

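Per the labels' protocols, live cells were sorted from digested brains, cDNA was made with SMART-Seq HT, libraries with Nextera XT and single-end reads of 75 bases were de-duplicated and mapped with Salmon. GRCm38 is the build in the submitters' processing notes. Salmon's version, the annotation and any use of strand are not given in the sources used. Values in the deposited table are FPKM per gene as made by the authors, beside gene positions and lengths. The column of untreated M_1 bears the number 2 where its title has 1, and the sample's description ties them.

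FPKM multiplied by length gave whole reads for 100% of values at a tolerance of 0.01, which served for depth. The composition ratio is the summed reads of a library over the size by which its FPKM were scaled. Genes with at least 1 FPKM in at least 3 libraries were tested on log2(FPKM + 1), a scale that understates the change of low genes, with limma 3.58.1 (lmFit, eBayes with trend, two-sided) in R 4.3.3, and p was adjusted by Benjamini-Hochberg over all 11277. Treatment had no covariate, sex had treatment as covariate, and the interaction fit had treatment, sex and their product (2 residual degrees of freedom). The scripts were tested on simulated data. The smallest two-sided p of an exact permutation test of 3 against 3 is 0.1. The p-values measure the spread between pools, with variance shared across genes by eBayes. In the interaction fit, untreated males and bezafibrate females are 1 pool each. The spread there comes only from the untreated female and bezafibrate male pools. Names were not taken to pair the pools. Pools of the same name did not deviate together (r = -0.363 for F_1 and -0.299 for M_1 over 11277 genes, which are not independent). Each name pair holds untreated M_1 or bezafibrate F_1, which stood apart from the other libraries, so these correlations cannot decide whether pools were paired. The names are those of the sample titles, and the column number of untreated M_1 would match it to bezafibrate M_2 instead. Alternatives covered pseudocounts, filters, scaling, covariates, a replicate block, array weights, limma-voom on the recovered reads and leaving out libraries.

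Members and lists were chosen with earlier results of these data known. Values in every library are given for the 8 members highest in mean FPKM, those whose groups do not overlap, the 6 with the largest treatment difference, the 3 with the largest sex difference, and Pex11a, Ehhadh, Abcd2 and Cat. Of the further peroxisomal genes, the rule named the 3 highest and those at an unadjusted p under 0.05, and 1 gene it named is not reported here. Pex10, Pex3, Phyh, Acbd5 and Slc25a17 were added after their values were seen. Of the table's gene IDs, 54409 were found in GENCODE vM21 (GRCm38), 98.3% with the same start and end, and overlaps of exons and shared 75-base stretches come from it. Promoter sequences are from RefSeq. Protein targeting signals were not analysed here.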

Additional observations from a re-analysis of the deposited data

Results flagged for a closer look

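Slc25a17, the peroxisomal membrane carrier of CoA and related cofactors, was called for the treatment by sex interaction. It was the 1 gene called of the 48 further peroxisomal genes tested, against 75 or 0.665% of all 11277 genes. It stood at 11.2, 7.91 and 3.52 FPKM in untreated F_1, F_2 and M_1 and at 3.06, 8.70 and 9.53 in bezafibrate F_1, M_1 and M_2. Untreated M_1 and bezafibrate F_1 were the low libraries. The interaction was 2.52 on the log2 scale (SE 0.349, adjusted p = 0.0476 in limma). It did not pass without a filter on low values (adjusted p = 0.129), without bezafibrate M_1 (0.180) or without bezafibrate M_2 (0.169). The result rests on 2 single libraries, and sex and library cannot be told apart.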

How the results depend on the processing

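Under all 18 alternatives of the treatment effect, 0 members were called. Of the 27 tested members, 11 kept the sign of their difference wherever they were tested (5 in all 18 alternatives, 6 in the 17 that kept them) and 16 changed it in at least 1. The number of genes called for treatment, 1, became 0 with the replicate block and with limma-voom, and ran from 0 to 3 when 1 library was left out. It was also 0 when untreated M_1 and bezafibrate F_1 were both left out. That fit compares untreated females with bezafibrate males only, so treatment and sex cannot be told apart in it. With the replicate block the member median was 0.09, though it is not known whether the shared pool names pair the samples. F_2 and M_2 each occur in 1 group only, so that difference rests on the F_1 and M_1 pools. The absence of calls under the block therefore shows little. The member median of 0.06 became -0.039 with the composition ratio as covariate, and 0.18 with limma-voom, where the median of all genes was 0.10. Rescaling to TPM moved the member median to 0.16 and that of all genes to 0.09. The median of the other peroxisomal genes, 0.02, became 0.12 with TPM and 0.12 with limma-voom. Genes called for sex, 3, ran from 1 to 4 with 1 library left out. Genes called for the interaction, 75, became 478 without a filter and 201 with TPM, which moved the median interaction of all genes to 0.28. Leaving out untreated F_1, untreated F_2, bezafibrate M_1 or bezafibrate M_2, an alternative chosen after seeing the data, gave 0 to 548 genes, with 0 members in each case and a member median from 0.22 to 0.34. The cause of these shifts was not tested. Pex2 ranged from 0.23 to 0.77 for treatment, with adjusted p of 0.290 or more in limma. The 0.77 and the 0.290 come from the fit without untreated M_1 and bezafibrate F_1, where treatment and sex cannot be told apart. The 5 untested members had 4 to 229 reads per library and the 27 tested ones 37 to 1790, which limits what the low ones can show.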
